A study of Mus musculus with 24 samples.

Results

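Cytosolic ribosomal proteins are the proteins that, with ribosomal RNA, build the ribosomes of the cytoplasm. Their genes were taken as all protein-coding mouse genes whose symbol begins with Rps or Rpl and a digit, together with Rpsa, Rplp0, Rplp1 and Rplp2. S6 kinases and symbols marked as pseudogenes were left out. The rule found 86 of the 55487 genes in the count table: 31 proteins of the small subunit, 43 of the large subunit, 3 of the stalk, and 9 paralogs or other genes with such a symbol. One of these 9, Rps19bp1, encodes a partner of a ribosomal protein rather than a ribosomal protein. Mitochondrial ribosomal proteins are not among the 86.

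The counts came from tumor-associated macrophages of MC38 tumors, a mouse colon carcinoma line grown orthotopically in C57BL/6J mice. The sort took cells positive for CD45, CD11b and F4/80. The tumor cells were APC-WT or APC-KO for the tumor suppressor gene Apc, while the macrophages came from the host in both genotypes. Each genotype had 2 tumors with 6 libraries each, 24 libraries in all, made from total RNA by an ultra low input Nextera XT protocol. The labels name neither the age nor the treatment of the mice, nor whether the APC-KO cells were 1 clone or how many mice gave a tumor. The labels call the 6 libraries replicates of a tumor without saying whether they share 1 RNA sample, so genotypes were compared over tumors.

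A ribosome joins a small subunit, which reads the mRNA, and a large subunit, which forms the peptide bonds. The stalk of the large subunit recruits the elongation factors. Most of the proteins enter the particle in 1 copy each, and their mRNAs are abundant and short, begin with a run of pyrimidines (the terminal oligopyrimidine or TOP motif) through which mTOR controls their translation, and have many processed pseudogenes. Transcript length and sequence shared with other loci therefore bear directly on how such genes are counted.

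The libraries of the genotypes differed in depth and composition. Library totals spanned 74972634 to 93568353 counts for APC-WT tumor 1 and 28018638 to 46837543 for APC-WT tumor 2. The APC-KO libraries were shallower, at 8895722 to 19328572 counts for tumor 1 and 13464061 to 17196820 for tumor 2. Genes counted as expressed (3941 genes whose mean reached 10 CPM and 10 times the background expected for them) took 81.7% and 73.6% of the counts in the APC-WT tumors and 33.2% and 31.8% in the APC-KO tumors. Levels below are therefore scaled CPM, CPM computed on the TMM-scaled total of these expressed genes. All 10 macrophage markers were expressed, with sums of 30259 and 25129.8 scaled CPM in the APC-WT tumors and 26347 and 27439 in the APC-KO tumors. Of the fibroblast markers 3 of 5 were expressed, with sums of 1581, 906, 340.0 and 526.3 scaled CPM in APC-WT tumor 1, APC-WT tumor 2, APC-KO tumor 1 and APC-KO tumor 2. Of the epithelial or MC38 markers 3 of 5 were expressed, with sums of 170.1, 530.2, 219 and 277 scaled CPM in the same order. The neutrophil list (3 of 6 expressed) summed to 297.5, 522.3, 436.1 and 229.9 scaled CPM. The endothelium list (1 of 3 expressed) had 134.8, 200.5, 167.1 and 170.4. In neither did both APC-KO tumors lie above or below both APC-WT tumors. The dendritic cell, T cell, B cell, NK cell and erythroid lists were higher in both APC-KO tumors than in either APC-WT tumor, as was the background expected for them. In that order the dendritic cell list (0 of 5 expressed) summed to 23.9, 56.1, 212 and 215 scaled CPM, against an expected 1.88, 13.4, 94.8 and 96.3. The T cell list (0 of 6 expressed) had 19.3, 32.4, 98.2 and 171 against 1.37, 9.77, 69.0 and 70.1. The B cell list (1 of 4 expressed) had 21.4, 30.8, 79.7 and 89.96 against 0.935, 6.68, 47.2 and 47.9, and the NK cell list (0 of 4) 5.04, 11.9, 32.6 and 87.9 against 0.494, 3.53, 24.9 and 25.3. The erythroid list (0 of 3) had 0.717, 1.69, 20.9 and 31.1 against 0.173, 1.24, 8.73 and 8.86. No marker of any list was at 0 in a tumor. The part of these lists in the results was not tested. In bulk RNA, fewer cells of a type and less RNA per cell cannot be told apart.

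Summed over all 86 genes, ribosomal protein mRNA was 3.30 times as high in the macrophages of APC-KO tumors as in those of APC-WT tumors when levels were scaled to the expressed genes; when libraries were scaled by TMM over all genes, the members' median log2 change was -2.10. The sum had a lowest, median and highest library of 5573, 5881 and 6152 scaled CPM in APC-WT tumor 1, of 4902, 5033 and 5283 in APC-WT tumor 2, of 17094, 17466 and 17952 in APC-KO tumor 1 and of 18183, 18630 and 18899.7 in APC-KO tumor 2. All 12 APC-KO libraries lay above all 12 APC-WT libraries, and within a genotype APC-WT tumor 2 lay wholly below APC-WT tumor 1 while APC-KO tumor 2 lay wholly above APC-KO tumor 1. As a share of all counts, satellite-like loci and background included, the 86 genes took 0.438% ± 0.0176, 0.355% ± 0.00958, 0.605% ± 0.0155 and 0.646% ± 0.00905 in that order of tumors (SD, n = 6 libraries each). This share, too, was higher in all APC-KO libraries. The background expected from the counts of 1974 olfactory and vomeronasal receptor genes, which macrophages should not express, amounted to 0.231%, 1.92%, 3.901% and 3.743% of the members' own level.

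**Figure D1:**
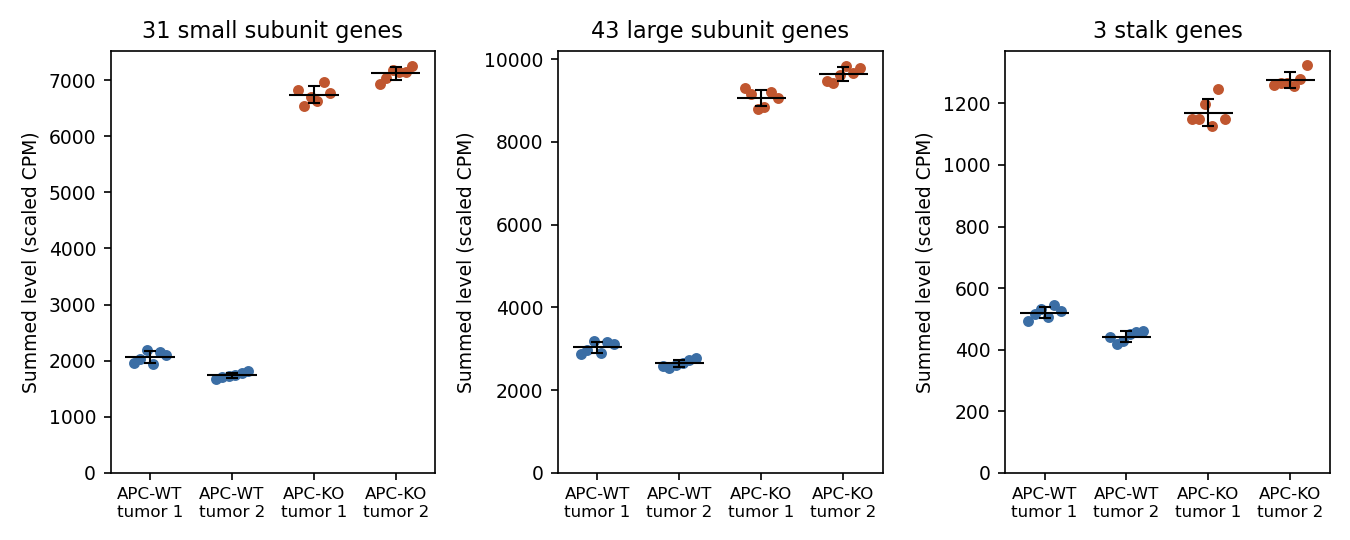
Summed level of small subunit, large subunit and stalk genes in each library (points, scaled CPM on the vertical axis from 0), with the mean and SD of 6 libraries per tumor. All 12 APC-KO libraries lay above all 12 APC-WT libraries in each of the 3 panels, on the scale of the expressed genes; scaled by TMM over all genes instead, the members' median change is -2.10 on the log2 scale.

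Small subunit genes summed to medians of 2064, 1730 (APC-WT tumors 1 and 2), 6736 and 7152 scaled CPM (APC-KO tumors 1 and 2), and large subunit genes to 3042, 2630.0, 9106 and 9646. The ratio of the small to the large subunit sum was 0.679 ± 0.00663 and 0.657 ± 0.00943 in the APC-WT tumors and 0.744 ± 0.0179 and 0.739 ± 0.00787 in the APC-KO tumors (SD, n = 6 libraries each). Its lowest APC-KO library, at 0.714, lay above its highest APC-WT library, at 0.688. With 2 tumors per genotype an exact permutation test over tumors cannot give a two-sided p below 0.333, so this ratio is given as a description. It rests on sums without a correction for length. Taken gene by gene, the median log2 change without the length offset described below was 1.96 in the small and 1.93 in the large subunit, and with that offset the order turned, to 0.55 and 0.80.

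Of the 86 genes, 70 were among the 3941 expressed genes and entered the test across genes: 28 of the small subunit, 35 of the large subunit, 3 of the stalk and 4 of the others. The limit for expressed genes is set on a mean that takes in both genotypes. A gene low in APC-WT can therefore enter through its APC-KO level. For 69 of these 70 the 12 APC-KO libraries all lay above the 12 APC-WT libraries in scaled CPM, against 28.1% of all expressed genes (28.4% had all APC-KO libraries below). Rpl7l1, a relative of Rpl7 thought to act in ribosome assembly, was the gene whose libraries overlapped. Compared by edgeR's quasi-likelihood test on the sums of 2 against 2 tumors, with no correction for length, 69 of 70 rose and 0 fell at an adjusted p under 0.05 (Benjamini-Hochberg over all expressed genes), where 32.7% of expressed genes rose and 30.8% fell. The median log2 change of the 70 was 1.95, and that of all expressed genes was 0.004.

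Transcript length separated the genotypes in the same direction. Among the 3871 expressed genes that are no ribosomal protein genes, short transcripts were higher and long transcripts lower in the APC-KO tumors: the rank correlation of the change with length was -0.60 (a description across genes, which share the same 4 tumors). The expressed ribosomal protein genes had a median principal transcript of 816 bp, against 2288 bp for the other expressed genes. Each tumor's trend of level on length was therefore fitted on the other genes alone and taken out of every gene as an offset. The members' change without the offset held near the same value at every length up to 1500 bp, while that of other genes declined. Members had medians of 2.14, 2.02, 1.82, 1.97 and 1.94 on the log2 scale in successive classes that end at 400, 600, 800, 1000 and 1500 bp. Other genes of these classes had 2.65, 1.65, 1.39, 1.12 and 0.68. The members thus lay below the other genes in the shortest class, which holds 4 members and 17 others, and above them in the 4 classes from 400 to 1500 bp.

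**Figure D2:**
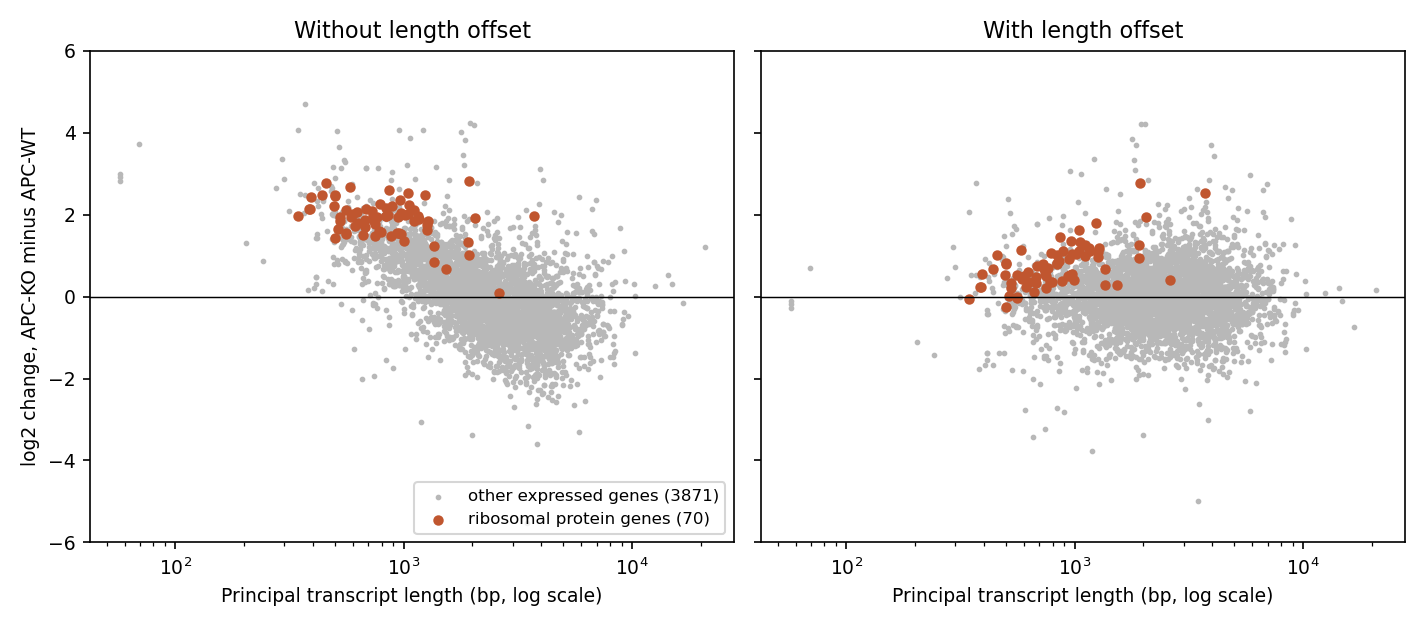
Change from APC-WT to APC-KO (log2, vertical axis) of 3941 expressed genes against principal transcript length (bp, log axis), before the length offset (left) and after it (right), with the 70 ribosomal protein genes in orange. Before the offset the members' median is 1.95, and after it 0.68; scaled by TMM over all genes, the members' median without an offset is -2.10.

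With the length offset, 44 of the 70 genes rose in the macrophages of APC-KO tumors, 0 fell and 26 did not pass (edgeR's quasi-likelihood test, adjusted p under 0.05), where 23.9% of expressed genes rose and 21.8% fell. At an unadjusted p under 0.05 the numbers were 52 higher (background 28.7%) and 0 lower, and DESeq2 called 51 higher and 0 lower (background 28.5% higher). The median log2 change was 0.68, against 0.003 for all 3941 genes. Scaled by TMM over all genes without the offset, it turned to -2.10. In that fit 0 members rose, and 0 of all 53705 tested genes passed either way. By role, 16 of 28 small subunit genes rose (median 0.55), 24 of 35 large subunit genes (0.80), 2 of 3 stalk genes (0.79) and 2 of 4 others (0.37). In the length classes that end at 400, 600, 800, 1000 and 1500 bp, 0%, 40%, 50%, 78.6% and 92.9% of members rose. Of other genes in these classes, 35.3%, 16.9%, 17.2%, 24.3% and 22.3% rose. Pooled over all genes up to 1500 bp, with the classes unequally filled, 38 of 63 members (60.3%) and 213 of 986 other genes (21.6%) rose. The number depends on the tumors: it was 53 without APC-WT tumor 1 (background 22.3%), 35 without APC-WT tumor 2 (background 21.9%), 13 without APC-KO tumor 1 (background 6.72%) and 7 without APC-KO tumor 2 (background 4.52%), while the median kept between 0.58 and 0.84. Of the genes named below as having risen with the offset, Rpsa, Rps20, Rpl5, Rpl12, Rpl31 and Rplp2 passed with any 1 tumor left out. Rps3, Rpl11, Rpl13a, Rpl35 and Rps19bp1 did not pass without APC-KO tumor 1 or without APC-KO tumor 2 (edgeR adjusted p from 0.0501 to 0.0889), nor Rpl23 and Rps4x without APC-KO tumor 2 (edgeR adjusted p = 0.0509 and 0.0623). Each of the 4 ways to set 1 APC-KO tumor against 1 APC-WT tumor had a positive median with the offset, 0.46 (APC-KO 1 and APC-WT 1), 0.67 (APC-KO 2 and APC-WT 1), 0.74 (APC-KO 1 and APC-WT 2) and 0.93 (APC-KO 2 and APC-WT 2), with 62, 65, 69 and 69 of 70 genes higher; pairs share tumors.

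The annotated length decides how much is taken out. It includes the untranslated ends, and for Rps20 the principal transcript is 3706 bp long with a coding part of 357 bp. An offset by coding length, chosen after seeing the data, left 68 of 70 members called higher with a median of 1.27, where 29.6% of the 3772 genes with a coding length rose. An offset by the longest annotated transcript, fitted on all expressed genes, left 50 called higher (background 24.9%) with a median of 0.89. Without an offset the members' change decreased with transcript length, at a rank correlation of -0.28. After the offset by transcript length it increased with length, at a rank correlation of 0.58, against -0.02 in other genes. Changes with the offset are therefore given below together with those without it.

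**Figure D3:**
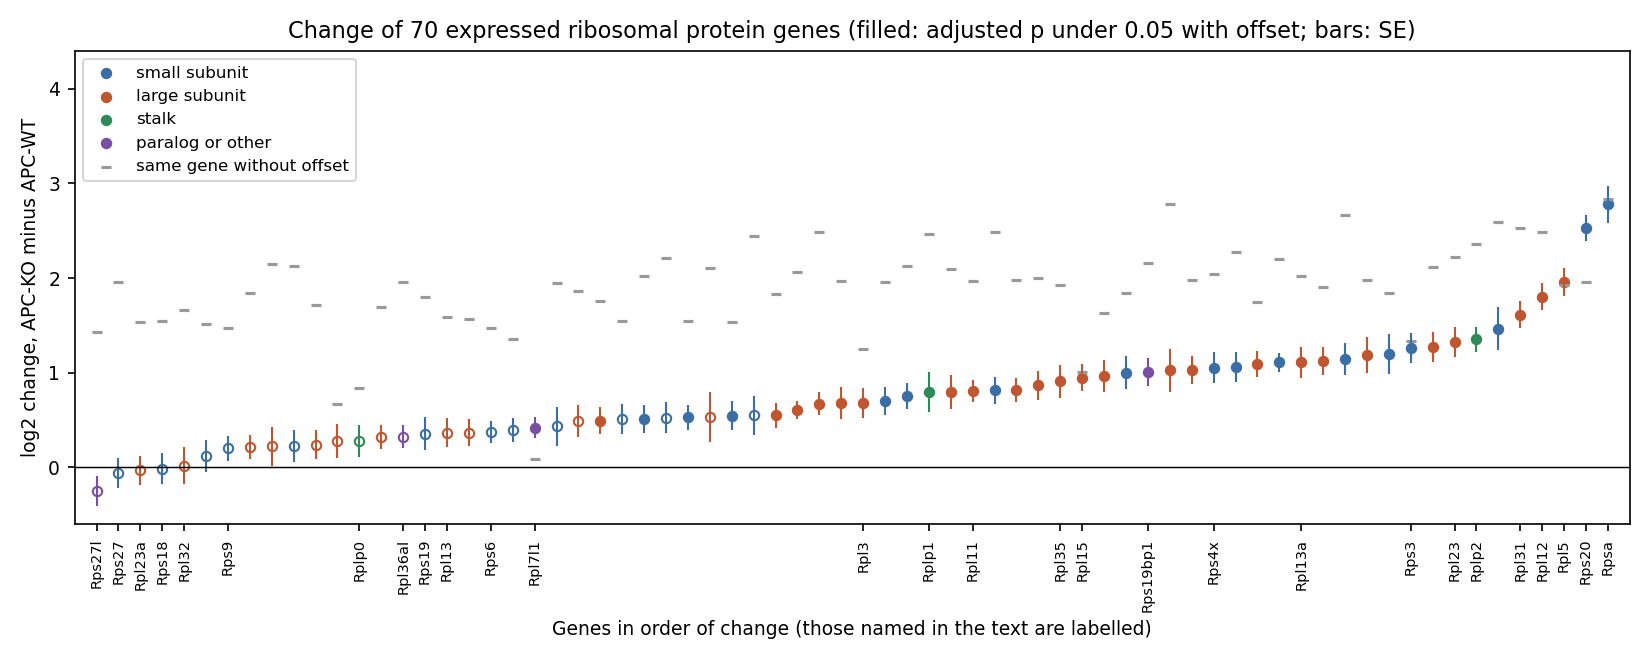
Log2 change from APC-WT to APC-KO (vertical axis) of each of the 70 expressed genes with the length offset (circles with SE, filled at an adjusted p under 0.05 by edgeR's quasi-likelihood test) and without it (grey dashes), on the scale of the expressed genes; genes named in the text are labelled. With the offset 44 genes are filled, from 0.42 (Rpl7l1) to 2.78 (Rpsa). In a fit scaled by TMM over all genes and without an offset, the members' median was -2.10.

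In the small subunit the largest change was that of Rpsa (ENSMUSG00000032518, chr9:120127689-120132369), the ribosomal protein also described as a laminin receptor. Its lowest, median and highest library stood at 90.2, 114 and 119 scaled CPM in APC-WT tumor 1, at 77.0, 96.1 and 101 in APC-WT tumor 2, at 544, 652 and 697 in APC-KO tumor 1 and at 699, 785 and 838 in APC-KO tumor 2. The APC-KO libraries were at least 544 and the APC-WT libraries at most 119, and the tumors of APC-KO did not overlap each other. It rose by 2.78 ± 0.194 on the log2 scale with the offset (SE, 2 against 2 tumors, edgeR adjusted p = 0.00348) and by 2.83 ± 0.188 without it, since its length of 1938 bp lies where the trend takes out 0.05.

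Rps20 (ENSMUSG00000028234, chr4:3831334-3835665), a protein of the small subunit head, had lowest, median and highest libraries of 60.5, 62.6 and 72.0 scaled CPM in APC-WT tumor 1 and of 49.8, 54.1 and 59.1 in APC-WT tumor 2. In APC-KO tumor 1 they were 203, 216 and 227, and in APC-KO tumor 2 they were 232, 241 and 251. The APC-KO libraries were all higher, and here the offset added to the change: 1.96 ± 0.133 without it, 2.53 ± 0.137 with it (edgeR adjusted p = 0.0033) and 1.08 with the offset by coding length. Its 2.53 thus rests on the long annotated transcript.

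Rps3 was also among the small subunit genes with the largest changes. Rps3 (ENSMUSG00000030744, chr7:99477896-99483738), which lines the mRNA entry site and has been described in DNA repair, had library medians of 185, 151, 418 and 422 scaled CPM in the order APC-WT 1, APC-WT 2, APC-KO 1, APC-KO 2, with no overlap of the genotypes. Its log2 change was 1.26 ± 0.161 with the offset (edgeR adjusted p = 0.00583) and 1.34 without it.

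Rps6 and Rps19 did not pass with the offset by principal transcript, and did by the longest transcript. Rps6 (ENSMUSG00000028495, chr4:86854660-86857412), the substrate of the S6 kinases, had lowest, median and highest libraries of 95.0, 99.9 and 107 scaled CPM in APC-WT tumor 1, 88.1, 91.8 and 95.6 in APC-WT tumor 2, 226, 265 and 287 in APC-KO tumor 1 and 252, 262 and 279.7 in APC-KO tumor 2. The genotypes did not overlap, and its log2 change was 0.37 ± 0.121 with the offset (edgeR adjusted p = 0.0593) and 1.48 ± 0.114 without it (edgeR adjusted p = 0.00114). It was 0.52 by the longest transcript and 0.52 with length and GC content (edgeR adjusted p = 0.0254 and 0.0216), and it passed in DESeq2 with the offset by principal transcript (DESeq2 adjusted p = 0.0261) and with the background subtracted (0.43, edgeR adjusted p = 0.0455). Rps19 (ENSMUSG00000040952), mutated in Diamond-Blackfan anemia, had medians of 119.9, 92.8, 356 and 371 scaled CPM and a log2 change of 0.35 ± 0.174 with the offset (edgeR adjusted p = 0.157) and 1.80 without it. By the longest transcript it rose by 2.02 (edgeR adjusted p = 0.003), by coding length by 1.10, and without APC-WT tumor 1 by 0.56 (edgeR adjusted p = 0.0489). The lowest APC-KO library of Rps19, at 299, lay above its highest APC-WT library, at 122.

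Rps4x, encoded on the X chromosome, rose by 1.05 ± 0.164 on the log2 scale with the offset (edgeR adjusted p = 0.00902) and by 2.04 without it. The small subunit genes with the change nearest 0 were Rps18 (medians 79.7, 62.9, 197 and 214 scaled CPM, log2 change -0.01 ± 0.161 with the offset) and Rps27 (27.1, 22.1, 100.2 and 92.1 scaled CPM, -0.06 ± 0.157). Neither passed with the offset (edgeR adjusted p = 0.951 and 0.781), and both rose without it, by 1.55 and 1.96. Their transcripts are among the short ones, 560 and 345 bp, where the trend takes out 1.57 and 2.01.

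In the large subunit Rpl5 and Rpl11 bind 5S ribosomal RNA and, outside the ribosome, the p53 regulator Mdm2. Rpl5 (ENSMUSG00000058558, chr5:107900502-107909005) had lowest, median and highest libraries of 65.6, 70.5 and 76.9 scaled CPM in APC-WT tumor 1, 54.4, 61.1 and 66.3 in APC-WT tumor 2, 213, 225 and 236 in APC-KO tumor 1 and 252, 260.2 and 287 in APC-KO tumor 2. All APC-KO libraries were higher, by 1.95 ± 0.149 on the log2 scale with the offset (edgeR adjusted p = 0.00348) and 1.93 without it. Rpl11 (ENSMUSG00000059291, chr4:136028265-136053428) had medians of 47.7, 44.2, 175 and 177 scaled CPM in the same order of tumors and rose by 0.81 ± 0.116 with the offset (edgeR adjusted p = 0.00742) and 1.97 without it. The partners of 1 complex thus had like changes before the offset and unlike ones after it, their lengths being 2045 and 833 bp.

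Rpl12, at the base of the stalk, had library medians of 25.9, 24.5, 136 and 149 scaled CPM in the order APC-WT 1, APC-WT 2, APC-KO 1, APC-KO 2, and its lowest APC-KO library was 113 against a highest APC-WT library of 28.9. It rose by 1.80 ± 0.14 with the offset (edgeR adjusted p = 0.00348). Rpl31, near the exit tunnel, had medians of 22.9, 19.5, 122.5 and 122.4 scaled CPM and rose by 1.61 ± 0.141 (edgeR adjusted p = 0.00348), and Rpl23, a further Mdm2 partner, had 29.8, 23.7, 120.1 and 128 and rose by 1.33 ± 0.157 (edgeR adjusted p = 0.00519). Without the offset these 3 genes rose by 2.49, 2.53 and 2.23, and in each the genotypes did not overlap.

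Rpl3, next to the peptidyl transferase centre, was higher by less without the offset: its medians were 235, 217, 489 and 558 scaled CPM, a log2 change of 1.25 without and 0.68 ± 0.162 with the offset (edgeR adjusted p = 0.0264). It did not pass without APC-WT tumor 2, APC-KO tumor 1 or APC-KO tumor 2 (0.59, 0.80 and 0.55, edgeR adjusted p = 0.0683, 0.0741 and 0.136). Rpl13a, which in myeloid cells also silences inflammatory mRNAs when released from the ribosome, had medians of 106, 86.5, 363.5 and 403 scaled CPM and rose by 1.11 ± 0.165 with the offset (edgeR adjusted p = 0.00806) and 2.02 without it. Rpl35 had 69.6, 57.7, 218 and 259.7 scaled CPM and rose by 0.91 ± 0.177 with the offset (edgeR adjusted p = 0.0153) and 1.93 without it. Nearest to 0 were Rpl32 (medians 101, 77.3, 263 and 292 scaled CPM, log2 change 0.02 ± 0.191 with and 1.66 without the offset) and Rpl23a (21.2, 18.2, 58.1 and 54.0 scaled CPM, -0.03 ± 0.154 and 1.54). Neither passed with the offset (edgeR adjusted p = 0.942 and 0.882), and by coding length they had 0.89 and 0.91.

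The 3 stalk proteins, which form 1 complex, had different changes. Rplp0 (ENSMUSG00000067274, chr5:115559467-115563727), the stalk base, had lowest, median and highest libraries of 378, 402.5 and 419.6 scaled CPM in APC-WT tumor 1, 324, 349 and 366 in APC-WT tumor 2, 577, 631 and 660.5 in APC-KO tumor 1 and 667.5, 686 and 708 in APC-KO tumor 2. The genotypes did not overlap, but its log2 change was 0.84 ± 0.155 without the offset and 0.28 ± 0.171 with it, which did not pass (edgeR adjusted p = 0.232), while the 0.82 by coding length did (edgeR adjusted p = 0.0125). The acidic proteins Rplp1 and Rplp2 bind to it as dimers.

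Rplp1 (ENSMUSG00000007892) had library medians of 64.2, 50.0, 279 and 341 scaled CPM in the order APC-WT 1, APC-WT 2, APC-KO 1, APC-KO 2, a log2 change of 2.47 without and 0.79 ± 0.21 with the offset (edgeR adjusted p = 0.0352). Rplp2 (ENSMUSG00000025508) had 53.8, 46.3, 254 and 244 scaled CPM, a log2 change of 2.36 without and 1.35 ± 0.133 with the offset (edgeR adjusted p = 0.00402). Without APC-WT tumor 2, APC-KO tumor 1 or APC-KO tumor 2, Rplp1 had 0.60, 0.96 and 0.60 with the offset and did not pass (edgeR adjusted p = 0.067, 0.0712 and 0.151). The lowest APC-KO libraries of Rplp1 and Rplp2 (259 and 231 scaled CPM) lay far above their highest APC-WT libraries (69.0 and 56.9). The difference between Rplp0 and the acidic pair was not tested.

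Among the paralogs and others, 4 genes were expressed. Rpl7l1 (ENSMUSG00000063888) was level without the offset: lowest, median and highest libraries were 140.5, 148 and 159.9 scaled CPM in APC-WT tumor 1, 138, 141 and 152 in APC-WT tumor 2, 128, 144 and 158 in APC-KO tumor 1 and 152, 162 and 167 in APC-KO tumor 2. The range of APC-KO tumor 1 overlapped those of both APC-WT tumors, and that of APC-KO tumor 2 overlapped APC-WT tumor 1 and lay just above APC-WT tumor 2. Its log2 change was 0.08 ± 0.107 without the offset (edgeR adjusted p = 0.522), 0.42 ± 0.111 with it (edgeR adjusted p = 0.0358) and -0.14 with the offset by coding length, its transcript being 2606 bp long. By the longest transcript it had 0.29 and did not pass (edgeR adjusted p = 0.0843), nor did it with any 1 tumor left out (0.33 to 0.49, edgeR adjusted p from 0.057 to 0.188).

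Rps27l, a p53-responsive paralog of Rps27, had medians of 39.7, 32.0, 102 and 95.9 scaled CPM and a log2 change of 1.43 without and -0.25 ± 0.157 with the offset, which did not pass (edgeR adjusted p = 0.251); without APC-WT tumor 2 it fell by 0.42 (edgeR adjusted p = 0.0489). Rpl36al had 38.2, 34.4, 142 and 136 scaled CPM and a log2 change of 1.95 without and 0.32 ± 0.122 with the offset, which did not pass (edgeR adjusted p = 0.0854). It passed by the longest transcript (1.17, edgeR adjusted p = 0.00429) and with length and GC content (0.45, edgeR adjusted p = 0.0444). Rps19bp1, a regulator of the deacetylase Sirt1, had 10.6, 13.0, 56.7 and 47.8 scaled CPM and rose by 1.00 ± 0.147 with the offset (edgeR adjusted p = 0.00769) and 2.16 without it. With APC-WT levels this low, Rps19bp1 may have entered the tested set only through its APC-KO level. Its place in the counts of genes that rose carries that limit. Between tumors of 1 genotype, compared over libraries without the offset, Rps19bp1 was the only expressed member that rose from APC-WT tumor 1 to tumor 2. It was also the only one that fell from APC-KO tumor 1 to tumor 2.

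The other 16 genes did not reach the limit for expressed genes, which depends on their background, and were fitted with all 53705 genes that passed a count filter, scaled to the expressed genes and without an offset. In that fit 85 of the 86 members rose, where 59.0% of all genes rose and the median of all genes was 3.57, against 1.98 for the members. Background differed as well: it was 0.0575 and 0.386 receptor CPM per kb in the APC-WT tumors and 1.35 and 1.37 in the APC-KO tumors. The part of background in this fit was not tested. The members with the lowest levels lay nearest to it. Rpl3l, a paralog of striated muscle, averaged 0.373 and 1.35 scaled CPM in the APC-WT tumors and 18.8 and 18.4 in the APC-KO tumors, where the background expected at its exons was 0.126, 0.903, 6.38 and 6.48.

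Rpl10l and Rpl39l, paralogs of male germ cells, averaged 0.368 and 0.289 scaled CPM in APC-WT tumor 1 and 14.9 and 5.98 in APC-KO tumor 2, where the background expected was 4.04 and 3.28. The 11 core genes of this set averaged at least 3.96 times their expected background in every tumor. Rpl22, which is known from T cell development, averaged 15.6, 15.5, 78.8 and 76.8 scaled CPM against an expected 0.224, 1.60, 11.3 and 11.5, and its paralog Rpl22l1 averaged 7.60, 7.96, 31.3 and 36.1 against 0.153, 1.09, 7.72 and 7.85. Rpl39, the smallest protein of the exit tunnel wall, averaged 8.89, 7.30, 40.1 and 43.3 scaled CPM. In Rpl22, Rpl22l1 and Rpl39 all APC-KO libraries lay above all APC-WT libraries, as they did in 85 of the 86 members altogether. The share among all genes that passed the count filter is not given here.

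Levels between the genes differed widely although their proteins enter the ribosome in like numbers. Per kb of transcript, the highest of the 66 expressed subunit and stalk genes was Rpl13, at 453 and 412 scaled CPM per kb in the APC-WT tumors and 1263 and 1310.1 in the APC-KO tumors. It was followed in APC-WT by Rps9, at 313 and 294, and Rplp0, at 295 and 253. The lowest of the 66 in APC-WT was Rps20, at 17.3 and 14.7 scaled CPM per kb in the APC-WT tumors and 58.4 and 64.9 in the APC-KO tumors, a value that its long annotated transcript lowers. In APC-KO the lowest was Rpl15, named after its values were seen, at 42.3 and 41.9. The ratio of the highest to the lowest gene was 26.2 and 27.9 in the APC-WT tumors and 29.9 and 31.2 in the APC-KO tumors.

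The order of the genes per kb was nearly the same in tumors of a genotype, with rank correlations of 0.99 over 66 genes for both genotypes, and less so between genotypes, at 0.91 to 0.92. These correlations are descriptions across genes, which share transcript lengths and, within a tumor, libraries. The log2 levels per kb spread over an SD of 1.01 and 1.04 in the APC-WT tumors and 0.882 and 0.877 in the APC-KO tumors. Genes with a low APC-WT level had the larger change, at a rank correlation of -0.62 over the 70 genes without the offset. Other expressed genes had -0.65, and the APC-WT level is part of the change itself. Rpl13 and Rps9, the highest per kb, had log2 changes of 1.59 and 1.47 without the offset and of 0.36 and 0.20 with it, which did not pass (edgeR adjusted p = 0.111 and 0.272). By the longest transcript both passed, with 1.43 and 0.77 (edgeR adjusted p = 0.00379 and 0.0124), and Rpl13 passed in DESeq2 (DESeq2 adjusted p = 0.0379).

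**Figure D4:**
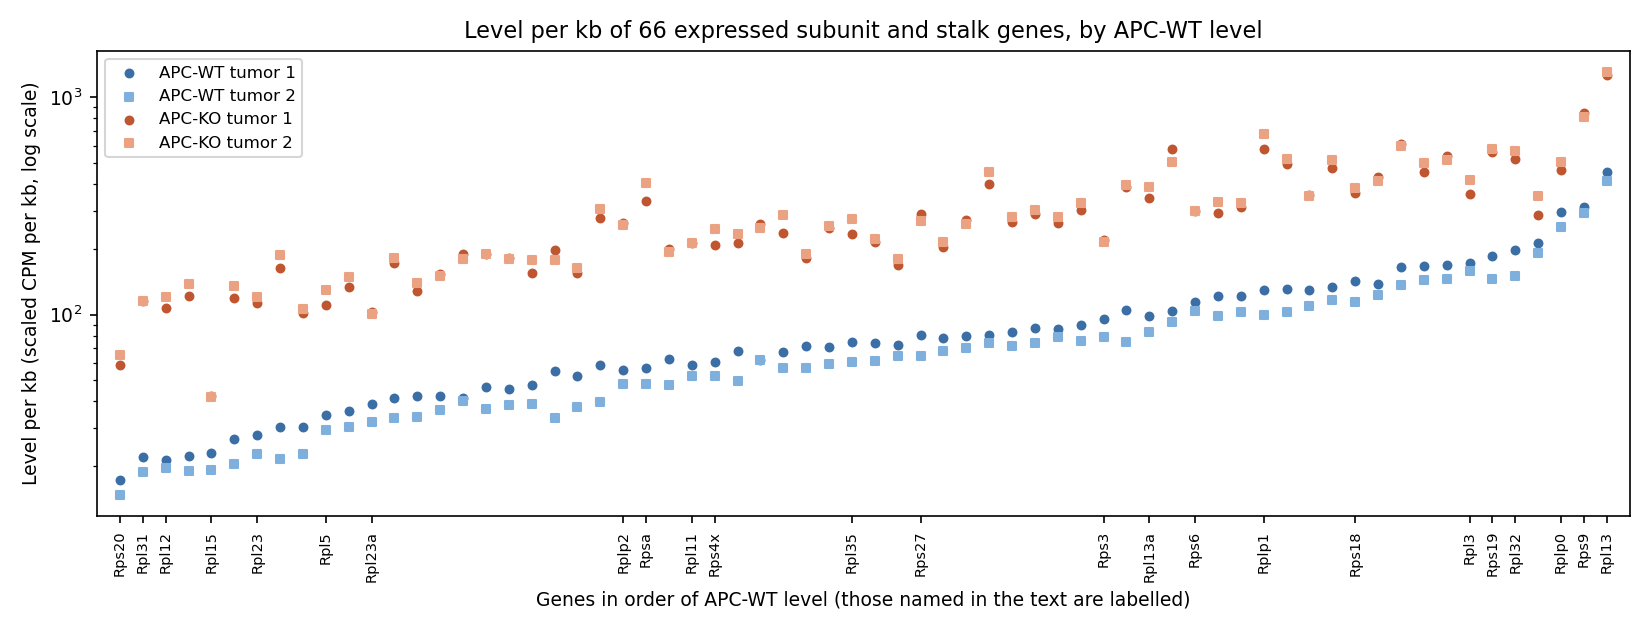
Level per kb of transcript (scaled CPM per kb, log axis) of 66 expressed subunit and stalk genes in the 4 tumors, ordered by their APC-WT mean, with the genes named in the text labelled. Values run from 14.7 to 453 in the APC-WT tumors and from 41.9 to 1310.1 in the APC-KO tumors, higher in APC-KO for all 66 on the scale of the expressed genes, while TMM over all genes turns the members' median change to -2.10.

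Tumors of 1 genotype also differed, by less. In APC-WT tumor 2 against APC-WT tumor 1, 62 of the 70 genes fell and 1 rose, by edgeR's quasi-likelihood test over libraries, where 27.4% of expressed genes fell and 19.5% rose. The median log2 difference was -0.24, and p-values here measure the spread between libraries of a tumor and not between animals. Rpl32 fell by 0.39, while Rps19bp1 rose by 0.28. In APC-KO tumor 2 against APC-KO tumor 1, 17 of 70 rose and 1 fell (median 0.07), where 15.2% of expressed genes rose and 18.1% fell. Rpsa rose by 0.30 between these tumors and Rplp1 by 0.25, and the gene that fell was Rps19bp1, by 0.22. With the length offset the count in APC-KO was 38 higher and 0 lower, where 19.8% of expressed genes rose. In APC-WT it was 65 lower and 1 higher, where 28.7% of expressed genes fell and 18.5% rose. Without the offset, the median difference between genotypes, 1.95, exceeded the medians between tumors of 1 genotype. Fitted medians between tumors of 1 genotype with the offset are not given here.

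Ribosomal protein genes share much of their sequence with other loci, so reads from a gene and its copies may be counted at either. The share of a member's 31-base words that also occur in annotated transcripts of other genes had a median of 61.9% over the 86 genes, and it exceeded 50% in 55 of them. The shares of Rpl35, Rps27 and Rpl5 were 99.0%, 98.7% and 94.8%, so these 3 counts are uncertain; Rpl35 shares 61.9% of its words with Wdr38 and 40.9% with Gm2000, and Rpl5 shares 45.8% with Fam69a. Rps27 and its near-identical copy Rps27rt share 98.7% and 91.6% of their words, counted from each. Rpl3l and Rps19bp1 share 0%, and Rps3 shares 8.95%.

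A total of 71 members had at least 1 annotated pseudogene locus holding 20% or more of their words, 415 loci in all. Counts at these loci summed to 969 and 1021 scaled CPM in the APC-WT tumors and to 5530.2 and 5652 in the APC-KO tumors, or 16.5%, 20.2%, 31.5% and 30.4% of the members' sum. After the expected background was taken off both, the shares were 16.2%, 17.9%, 27.2% and 26.2%. Pseudogene loci thus took a larger share in both APC-KO tumors than in either APC-WT tumor. Among the pseudogene loci with the highest counts were Gm12918, a copy of Rpl13 (28.9, 26.2, 90.4 and 97.7 scaled CPM), and Rpsa-ps10, a copy of Rpsa (10.7, 10.1, 82.0 and 87.9).

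The change without the offset did not follow the shared sequence. Expressed members with under 30% of shared words had a median log2 change of 1.95 (7 genes), and those with 30 to 60%, 60 to 80% and over 80% had 2.02, 1.95 and 1.87 (25, 21 and 17 genes), a rank correlation of -0.07 over 70 genes. With the offset, 6, 16, 16 and 6 of these genes rose, a share that was lowest in the class over 80%. The class medians were then 0.87, 0.82, 0.79 and 0.43, at a rank correlation of -0.25 over the 70 genes. Rps3, with little shared sequence, had a log2 change of 1.34 without and 1.26 with the offset. How the authors' counting treated reads with several matches is not given in the sources used here.

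**Figure D5:**
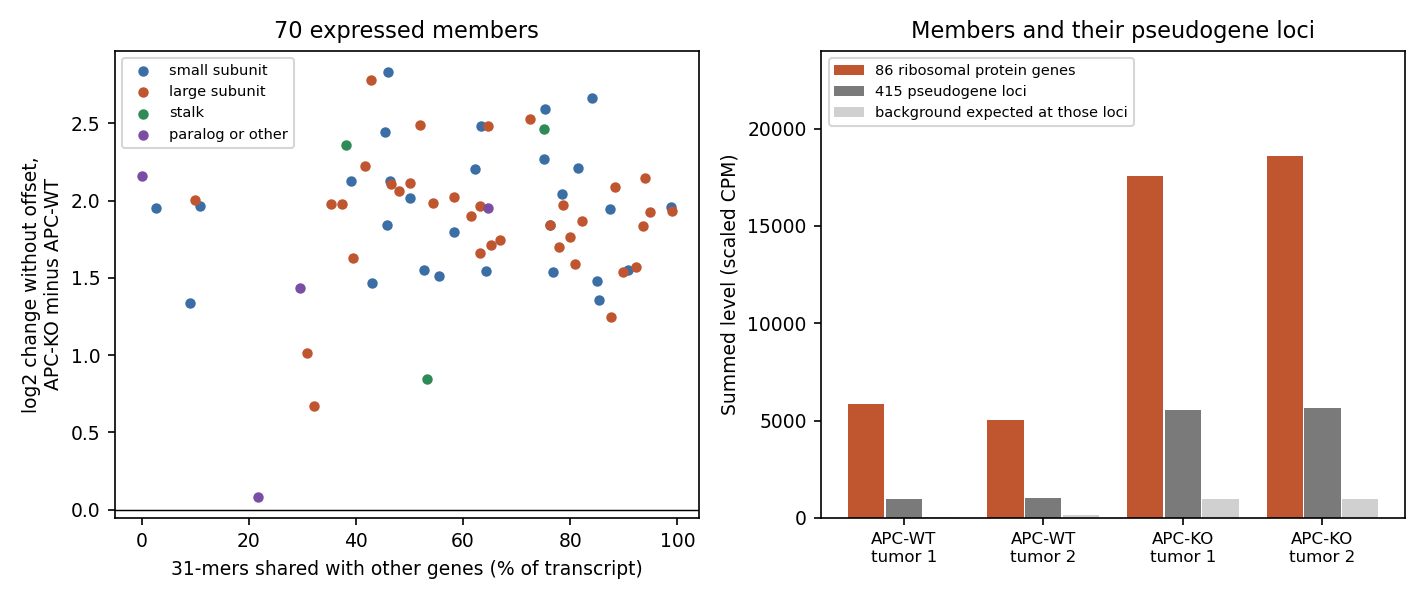
Left, log2 change without the offset (vertical axis, scale of the expressed genes) of 70 expressed members against the share of their 31-base words found in other genes (%). Right, summed level (scaled CPM) of 86 members, 415 pseudogene loci and the background expected at those loci; the loci take 16.5% and 20.2% of the members' sum in APC-WT and 31.5% and 30.4% in APC-KO, and by TMM over all genes the members' median change on the left would be -2.10.

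The start sites of 6 members are shown because the pyrimidine run that defines a TOP mRNA lies there. Rplp2, Rpl35 and Rpl7l1 rose with the length offset, and Rpl7l1 was level without it. Rps6, Rps27 and Rps18 did not pass with the offset. Each window holds 40 bases before and 20 bases from the start site annotated by RefSeq (GRCm38.p6), on the gene's own strand, and capitals mark the longest unbroken run of C and T that touches the 5 bases before to 10 bases after the start.
Rplp2 (chr7:141447611-141447670, + strand): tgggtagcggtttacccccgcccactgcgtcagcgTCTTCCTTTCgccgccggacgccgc
Rpl35 (chr2:39005112-39005171, - strand): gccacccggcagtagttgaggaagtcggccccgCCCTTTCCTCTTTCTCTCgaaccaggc
Rps6 (chr4:86857348-86857407, - strand): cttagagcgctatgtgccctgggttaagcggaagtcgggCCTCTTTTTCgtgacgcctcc
Rps27 (chr3:90213629-90213688, - strand): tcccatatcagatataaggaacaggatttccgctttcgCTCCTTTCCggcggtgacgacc
Rps18 (chr17:33955646-33955705, - strand): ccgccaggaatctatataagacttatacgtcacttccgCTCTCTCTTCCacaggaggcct
Rpl7l1 (chr17:46782637-46782696, - strand): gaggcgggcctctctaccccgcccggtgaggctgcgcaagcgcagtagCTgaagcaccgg
The runs are 10, 18, 10, 9 and 11 bases long in the first 5 genes and 2 bases in Rpl7l1. Genes with a run at the start were therefore found both among those that rose with the offset and among those that did not.

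RefSeq promoter windows of 300 bases (250 before and 50 from the start) were matched by symbol for 66 of the 86 members. A run of at least 8 C or T near the start, on the gene's strand, was found in 39.4% of the 66 and in 13.0% of all 27025 genes with a window. On either strand, CTTTCC was found in 54.5% of members and 29.3% of all, and CTCTTTC in 27.3% and 9.28%. CCGGAAG, a core bound by ETS factors, was found in 39.4% and 9.93%, and TATAAA in 10.6% and 15.7%. The pyrimidine motifs may overlap each other, and a match describes letters in this window alone.

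Other genes of the translation machinery rose in part. Of 17 expressed genes from a list of 19 other TOP mRNAs, 11 rose and 0 fell with the length offset (median log2 change 0.89), where 23.9% of expressed genes rose, and 14 rose and 0 fell without it. Eef1b2, which reloads elongation factor 1 with GTP, stood at 25.7 and 22.6 scaled CPM in the APC-WT tumors and 81.4 and 96.1 in the APC-KO tumors and rose by 1.84, Eef2, the translocation factor, rose by 1.45, and Eef1g rose by 1.31 (edgeR adjusted p = 0.00348, 0.00402 and 0.00348). Without the offset these 3 had 1.89, 0.99 and 1.42. Fau encodes a ubiquitin-like protein fused to a ribosomal protein, and the symbol rule does not take it. It rose by 0.98 with the offset (edgeR adjusted p = 0.00828) and by 2.27 without it. Rack1, a protein bound to the small subunit, rose by 1.30 with the offset (edgeR adjusted p = 0.00438) and 1.77 without it. Fau and Rack1 were named after their values were seen.

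Of 26 expressed translation factors from a list of 32, 13 rose and 1 fell with the offset (median 0.38), where 23.9% of expressed genes rose and 21.8% fell. Without it 13 rose and 3 fell, where 32.7% rose and 30.8% fell. Subunits of initiation factor 3 were among those that rose, Eif3f by 1.69 (1.39 without the offset) and Eif3a by 1.29 (0.70). The factor that fell was Eif4g2, by 3.22 with and 1.94 without the offset, from 1291 and 1213 scaled CPM in the APC-WT tumors to 311 and 333 in the APC-KO tumors; its annotated principal transcript of 742 bp sets the offset. Of 15 expressed assembly factors from a list of 35, 9 rose and 0 fell with the offset (median 0.66), and 9 rose and 1 fell without it. Among them were Nop16, which rose by 1.29 with and 1.49 without the offset, Ubtf, a factor of ribosomal RNA transcription, by 1.12 and 0.51, and Nhp2 by 0.94 and 1.85. Of 5 expressed regulators from a list of 18, 1 rose and 1 fell with the offset, and 1 rose and 1 fell without it. Eif4ebp1, which restrains cap-dependent initiation, rose by 0.93 with and 0.93 without the offset. Mdm2 fell by 0.73 without the offset (edgeR adjusted p = 0.0241). With the offset it had -0.26 and did not pass (edgeR adjusted p = 0.268). Myc, which activates ribosomal genes in many cells, stood at 146, 85.5, 63.7 and 81.1 scaled CPM in the order APC-WT 1, APC-WT 2, APC-KO 1, APC-KO 2, so that APC-WT tumor 2 lay close to APC-KO tumor 2. Its log2 change was -1.22 with the offset (edgeR adjusted p = 0.0346) and -0.66 without it, which did not pass (edgeR adjusted p = 0.108). With the offset by coding length 0 of the 5 regulators rose and 0 fell.

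Other large protein complexes with short mRNAs gave these values. Of 33 expressed mitochondrial ribosomal proteins (78 listed), 17 rose and 0 fell with the offset, with a median log2 change of 0.44, where 23.9% of expressed genes rose and 21.8% fell. Without it 33 rose, with a median of 1.36, and by coding length 29. Of 35 expressed proteasome subunits (40 listed), 9 rose and 1 fell with the offset, with a median of 0.19, and the share that rose was near that of all expressed genes. Without it 27 rose and 2 fell (median 0.70), and by coding length 25 rose and 0 fell. Of 70 expressed nuclear-encoded respiratory chain subunits (86 listed), 22 rose and 4 fell with the offset, with a median of 0.19. Without it 63 rose and 1 fell (median 1.46), where 32.7% of expressed genes rose, and by coding length 52 rose and 3 fell, where 29.6% rose. Their median transcripts were 995, 1440.0 and 787 bp, so the respiratory chain subunits come nearest to the 816 bp of the ribosomal protein genes. Whether the lists differ from each other was not tested.

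Among all other expressed genes, those most like the mean of the 70 members over the 24 libraries were Gm2000, Kdm6b and Aif1, with Pearson correlations of 0.998, 0.998 and 0.997 of log2 scaled CPM. Gm2000 shares sequence with Rpl35, Kdm6b encodes a histone H3 demethylase, and Aif1 a calcium-binding protein of macrophages. Kdm6b stood at 137 and 106 scaled CPM in the APC-WT tumors and 512 and 546 in the APC-KO tumors, Aif1 at 323, 281, 852 and 883. With 4 tumors, such a likeness rests mainly on the step between genotypes.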

How the data were processed

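The authors deposited whole-number counts for 55487 genes and 24 libraries. The tools bcl2fastq 2.20.0, HISAT2 and StringTie and the build mm9 are named in the submitters' processing notes; settings, strand and annotation are not given in the sources used here. Symbols, coordinates and lengths came from GENCODE M21 (GRCm38) by gene ID, the length being that of the principal transcript. Expressed genes excluded 12 satellite-like loci. Counts were analysed in R 4.3.3 with edgeR 4.0.16 (glmQLFit, glmQLFTest, TMM, Benjamini-Hochberg at 0.05), with limma 3.58.1 and DESeq2 1.42.0 as alternatives, and in Python 3.11.15. Adjusted p-values are edgeR's unless another tool is named. For the genotype, counts were summed per tumor over its 6 libraries, and the length offset was a loess fit (span 0.5) of log2 level on log2 length over expressed genes that are no members. Tumors within a genotype were compared over libraries without it.

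Members, lists and tests were chosen with earlier results of these data known. Genes were named by role: up to 4 with the largest change past the threshold and 2 nearest 0 in each, the highest and lowest per kb, the extremes of shared sequence, 19 fixed genes, and up to 3 with the smallest p in each related list; some genes that the rule takes are not reported here. Alternatives were other offsets, scalings, filters and tests, left-out tumors, and blocks by tumor or library number. Libraries of a tumor differed by more than sampling noise in each pair. Counts of 3941 genes were simulated for 2 against 2 tumors. The length trend fitted here was put in, with an assumed spread common to all genes. The test with the offset found 94% of genes changed by 1 and 100% of genes changed by 2 on the log2 scale, beside 4 false calls (0.107%). Without the offset it found 76% and 95%, beside 1702 false calls (45.5%). Because the trend was put in, the gap between the fits was set in advance. It does not show whether the offset suits these tumors.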

Additional observations from a re-analysis of the deposited data

Results flagged for a closer look

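Each named member was examined within each tumor for a library set far apart from the other 5. Of 132 such groups of 6 libraries 7 were found, where chance gives about 1 in 20. Rpl36al accounted for 3 of them: library 3 of APC-WT tumor 1 at 44.6 scaled CPM (others 37.0 to 38.4), library 5 of APC-WT tumor 2 at 38.8 (others 32.2 to 34.7) and library 2 of APC-KO tumor 1 at 163 (others 137 to 144). In APC-WT tumor 1, Rpl22l1 stood at 8.51 in library 2 (others 7.24 to 7.50). In APC-WT tumor 2, Rpl13a stood at 96.1 in library 5 (others 84.7 to 88.3) and Rpl32 at 91.2 in library 6 (others 70.7 to 77.4). Rps27l was low in library 4 of APC-KO tumor 1, at 83.5 (others 99.3 to 108). No flagged library carried its gene across the gap between the genotypes.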

How the results depend on the processing

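Against 44 members called higher and a median log2 change of 0.68, the fit without an offset gave 69 and 1.95, limma-voom without it 69 and 1.97 (32.7% of all tested genes higher), the 24 libraries without it 69 and 1.94 (44.1%), all filtered genes scaled to the expressed genes 85 and 1.98, and all genes with a count 85 and 1.98 (55.6%). An offset by coding length, chosen after seeing the data, gave 68 and 1.27, and the offset by the longest transcript gave 50 and a median of 0.89. TMM over all genes, without an offset, gave 0 higher, 0 lower and a median of -2.10, in a fit where 0 of all 53705 tested genes passed either way. There 15 members were lower and 1 higher at an unadjusted p under 0.05. The share of all genes at that limit is not given here. By construction a scaling over all genes centres on genes that carry background. Leaving out 1 tumor gave 7 to 53 members higher, 0 to 1 lower (Rps27l without APC-WT tumor 2) and medians from 0.58 to 0.84; the lone tumor left was assumed to vary like the others. Between the APC-KO tumors the offset gave 38 higher and 0 lower, against 17 and 1 without it. Of the 70 members 0 fell in DESeq2 too, and 51 rose; 46 rose with the background subtracted (22.9% of all tested genes) and 50 with length and GC content (23.8%). Size factors of DESeq2 changed nothing, since the offset absorbs scaling.

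With TMM over all genes and no offset the sign turned for 23 named genes: Rpl11 -2.09, Rpl12 -1.56, Rpl13 -2.46, Rpl13a -2.06, Rpl23 -1.87, Rpl3 -2.80, Rpl31 -1.55, Rpl32 -2.46, Rpl35 -2.17, Rpl36al -2.12, Rpl5 -2.15, Rpl7l1 -3.95, Rplp0 -3.24, Rplp1 -1.66, Rplp2 -1.72, Rps19 -2.31, Rps19bp1 -1.78, Rps20 -2.12, Rps3 -2.76, Rps4x -2.04, Rps6 -2.58, Rps9 -2.57 and Rpsa -1.25. Signs near 0 also turned. Without an offset, with limma-voom, with all filtered genes, with all genes with a count and with 24 libraries, Rpl23a had 1.54, 1.53, 1.54, 1.54 and 1.53, Rps18 1.55, 1.58, 1.55, 1.55 and 1.53, Rps27 1.96, 1.97, 1.96, 1.96 and 1.97, and Rps27l 1.43, 1.46, 1.43, 1.43 and 1.42. By coding length they had 0.91, 0.90, 0.83 and 0.31, and Rpl7l1 -0.14. By the longest transcript Rps18 had 0.62 and Rps27 0.46, and with GC content Rpl23a 0.12. With tumors left out in turn, Rpl23a ranged up to 0.13 (also 0.02), Rps18 up to 0.17 (also 0.09), Rps27 from -0.23 to 0.14, and Rpl32 from -0.18 to 0.25 (also -0.11). The cause was not tested.

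Tumor number as a replicate block gave 32 members higher (median 0.68), where 14.5% of tested genes were higher; Rpl3, Rpl7l1 and Rplp1 then missed the threshold (edgeR adjusted p = 0.0877, 0.114 and 0.0798). Samples of 1 number did not deviate together (correlation -0.39), and the crossed pairing, chosen after seeing the data, gave 56 (31.4% of tested genes). Library number as a block gave 61 lower and 1 higher in APC-WT (26.7% and 18.8% of tested genes) and 20 higher and 1 lower in APC-KO (14.9% and 17.6%); correlations ran from -0.34 to 0.68 and from -0.26 to 0.08, and 2 of 12 libraries were closest to their own number, so the numbers are not shown to pair libraries. Depth was lowest in APC-KO tumor 1, with 8895722 counts in 1 library.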
